A study of Solenopsis invicta with 12 samples.

Results

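The fire ant Solenopsis invicta lives in monogyne colonies, which have a single queen, and in polygyne colonies, which have several. A block of linked genes, the social supergene, exists in the variants SB and Sb and is inherited as a unit. Polygyne colonies hold SB/Sb and SB/SB workers side by side, and the genotype of a queen decides whether polygyne workers tolerate it as a further queen. Workers sense queens largely through the antennae, where odorant-binding proteins carry odour molecules through the fluid of the sensory hairs to odorant receptors on nerve cells. Enzymes such as cytochrome P450 proteins break odour molecules down. The comparison described here sets SB/Sb workers against their SB/SB nestmates in polygyne colonies, so that the queens, the nest and the social form were shared and the supergene genotype differed.

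It used 8 of the 12 antennal RNA libraries of the series. The 4 SB/Sb libraries (P_Bb) and the 4 SB/SB libraries (P_BB) came from the polygyne colonies Rui9, Gui3, Bang3 and Bo5, with 1 library of each genotype from each colony. The 4 SB/SB libraries of monogyne colonies (M_BB, colonies Rui7, Zhuang3, Tan1 and Rui1) entered no test in the main comparison and are given beside the polygyne values as a description. Each library was made from a pool of antennae cut from workers that had come to honey in the foraging area, each genotyped at the supergene gene Gp-9 from its body. All RNA was amplified before sequencing. Worker age was not given in the sources used here. A replicate is thus a colony and not an ant, and 1 pool per genotype and colony gives no measure of the spread between pools of the same colony. In pooled tissue, fewer cells of a type and less RNA per cell cannot be told apart.

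The P_Bb libraries held 2373104 to 4101327 expected counts and the P_BB libraries 2546365 to 3352972. Between 13325 and 14553 of the listed genes had a count in a P_Bb library, and between 13283 and 14251 in a P_BB library. The 10 most abundant genes took 10.9% to 16.1% of a P_Bb library and 11.6% to 20.6% of a P_BB library. Pools of 1 genotype were distinct libraries, because their counts varied at least 6.51 times as much as counting noise alone would give. The prefix of the library names in the labels differs between colony Bo5 and the other 3 colonies. The labels show no difference within a colony apart from genotype. However, the share of duplicate reads that the study lists was higher in P_Bb than in P_BB of Gui3 and Bo5. The gap was widest in Bo5, whose P_Bb library had the highest such share of all libraries in the series. In Rui9 and Bang3 that share was lower in P_Bb. An effect of these differences was not tested. The gene identifiers could not be matched to the available RefSeq table, so markers of the antenna, muscle or fat body were not tested and no sequences are shown. Predicted functions and supergene membership come from the study's table of differing genes, whose members were chosen on these libraries, so that counts over its groups describe them and are not independent evidence of a direction.

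In the antennae, SB/Sb workers differed from their SB/SB nestmates in a small set of genes, and most of these were higher in SB/Sb when all 4 colonies were used. Of the 10057 genes tested, 24 (0.239%) passed an adjusted p of 0.05 in edgeR's quasi-likelihood test with the colony as a block and Benjamini-Hochberg adjustment. The 22 that rose in P_Bb were 0.219% of the genes tested, and the 2 that fell were 0.0199%. An unadjusted p under 0.05 was reached by 231 genes. The count depended on the colonies used. It was 28 without Rui9, 57 without Gui3 (24 higher and 33 lower in P_Bb), 10 without Bang3 and 1 without Bo5, the 1 being the retrotransposon Gypsy 19, and of the 22 genes that rose, 22, 22, 9 and 1 passed in these fits in the same order. Without Bo5 no named gene changed direction. The fitted log2 fold change went from 2.74 to 2.94 for Gypsy 19, from 3.99 to 3.65 for SINVm1_gene_02111 and from 3.43 to 3.52 for SINVm1_gene_05175. Fits without a colony have fewer residual degrees of freedom than the full fit. Why the counts differ was not tested. Without the block on colony 16 genes passed, all of them among the 22. DESeq2 called 23 higher and 11 lower. The 22 included an odorant-binding protein, a cytochrome P450, 4 supergene genes and 6 transposable elements. All 22 were also in the study's table, and 1 of the 2 that fell was.

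Every one of the 22 genes had a higher TPM (a transcript level scaled for gene length and library total) in P_Bb than in P_BB in all 4 colonies. In all 22 the lowest P_Bb value lay above the highest P_BB value. Because the 22 were chosen by a test on these same libraries, this describes them and is no separate evidence. Among all genes tested, 6.41% were higher in P_Bb in all 4 colonies and 3.28% were lower in all 4. Without overlap between genotypes, 0.835% lay above and 0.507% below. These wider counts depend on scaling. By TPM, 645 genes were higher and 330 lower in all 4 colonies, which makes 66.2% of them higher, whereas by TMM-scaled counts the numbers were 486 and 512, or 48.7% higher. The median log2 fold change of all genes tested was 0.01 in the fit, while the median log2 ratio of TPM was 0.13 in Rui9, -0.12 in Gui3, 0.02 in Bang3 and 0.14 in Bo5, against which the per-colony ratios below are to be read.

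**Figure D1:**
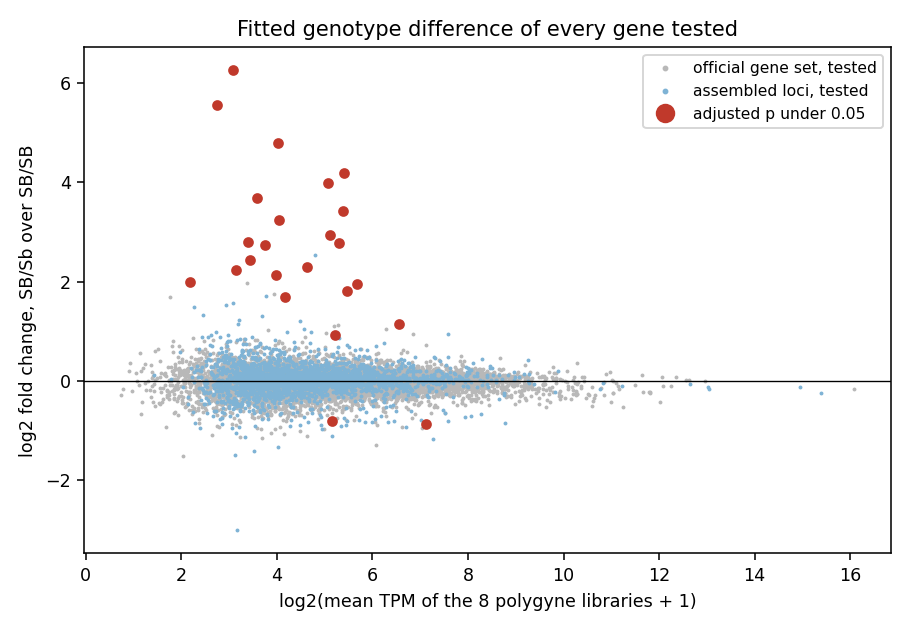
Each point is 1 of the 10057 genes tested, with the log2 of its mean TPM plus 1 over the 8 polygyne libraries on the horizontal axis and the fitted log2 fold change, SB/Sb over SB/SB, on the vertical axis. The 24 genes past the threshold are red, 22 above the line at 0 with log2 fold changes from 0.92 to 6.26 and 2 below it.

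The 22 genes that rose had a median log2 fold change of 2.76, and 16 of them changed at least 4-fold. They were weakly to moderately expressed even in SB/Sb antennae, with mean levels between 5.71 and 129.6 TPM in P_Bb and a median of 28.8 TPM. The median of their mean levels was 3.78 TPM in P_BB and 2.81 TPM in M_BB. In 21 of the 22, every P_Bb value also lay above every monogyne value, the exception being XLOC_041741. The 22 were chosen for high P_Bb values, and the study's table, which holds them all, also drew on the monogyne libraries. This count is thus a description. The matching share over all genes tested was not counted. The mean of the P_BB libraries was above that of the M_BB libraries in 12 of the 22 and below or equal to it in the rest.

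Among the supergene genes of the study's table, 4 of 7 rose in P_Bb, beside 0.219% of all genes tested, and 0 fell. Their median log2 fold change was 1.15. The gene model SINVm1_gene_02111, the odorant-binding protein SiOBP12, may collect reads of any copy or allele of SiOBP12. Among them is SiOBP12b', a copy that the study places in the Sb genome alone. The copies were not told apart here. From sequence differences in the pooled SB/Sb libraries, the study assigned nearly all reads at this gene to SiOBP12b'. The gene model had 57.8, 104.8, 28.6 and 55.2 TPM in P_Bb of Rui9, Gui3, Bang3 and Bo5, against 10.3, 3.82, 1.21 and 0 TPM in P_BB of the same colonies. The genotypes did not overlap, and the P_BB pool of Rui9 stood highest among its group. The gene was 3.99 ± 0.53 higher in P_Bb (log2 fold change ± SE, n = 4 colonies, edgeR adjusted p = 0.00932). In the monogyne libraries it was at 0 to 1.97 TPM, on 2 counts in all.

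The log2 ratio of SINVm1_gene_02111 within a colony ran over a wide range, with 2.39 in Rui9, 4.46 in Gui3, 3.74 in Bang3 and 5.81 in Bo5. Its SD of 1.43 over the 4 colonies was the largest among the genes described here that passed, and leaving out colony Rui9 moved the fitted log2 fold change to 5.12. The order of the colonies rested on the low P_BB counts, which were at most 7 in a library. The fit without the block gave an adjusted p of 0.0720 for this gene.

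SINVm1_gene_05175, predicted as a NADH dehydrogenase, an enzyme of the kind that passes electrons into the respiratory chain, had 72.7, 121.6, 34.7 and 68.0 TPM in P_Bb of the colonies in the same order, against 2.63, 10.9, 6.63 and 7.76 TPM in P_BB. Like SINVm1_gene_02111, it was highest in the P_Bb pool of Gui3 and lowest in that of Bang3. In the fit it was 3.43 ± 0.41 higher in P_Bb on the log2 scale (SE, edgeR adjusted p = 0.00406), on 131 counts in P_Bb and 12 in P_BB in all. Its neighbour by number, SINVm1_gene_05176, is predicted as a ubiquitin-like domain-containing CTD phosphatase, a protein that in mammals removes phosphate from the proteasome. It was the most abundant of the 22 genes and one of the least variable between colonies. It had 124, 115, 113 and 167 TPM in P_Bb, against 46.5, 50.2, 56.7 and 72.8 TPM in P_BB. Its log2 fold change was 1.15 ± 0.16 (SE, edgeR adjusted p = 0.0103, and 0.0720 without the block), and the ratio had an SD of 0.17 over the colonies.

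SINVm1_gene_05144, for which the sources disagree on the predicted function, had 4.83, 4.08, 6.02 and 7.89 TPM in P_Bb, against 0.65, 1.33, 2.13 and 1.45 TPM in P_BB. Although the lowest in level among the genes that rose, it is a long gene and rested on 203 counts in P_Bb and 48 in P_BB. Its log2 fold change was 1.99 ± 0.30 (SE, edgeR adjusted p = 0.0167).

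The other 3 supergene genes did not pass. SINVm1_gene_05326 had 49.0, 62.4, 50.6 and 45.3 TPM in P_Bb, against 34.8, 18.4, 23.9 and 16.8 TPM in P_BB, with no overlap and a log2 fold change of 1.13 ± 0.25 (SE, edgeR adjusted p = 0.231). By qRT-PCR on separate antennal RNA, the study found SINVm1_gene_05326 higher in SB/Sb workers than in SB/SB workers of either social form. It reports the same for SINVm1_gene_05144, SINVm1_gene_05175 and SiOBP12. SINVm1_gene_13984, predicted as a receptor tyrosine kinase of the ror type, had 15.4, 13.4, 16.5 and 21.4 TPM in P_Bb, against 6.24, 12.5, 13.8 and 10.5 TPM in P_BB. Here the groups overlapped, since the P_BB pool of Bang3 lay above the P_Bb pool of Gui3, and the log2 fold change was 0.61 ± 0.22 (SE, edgeR adjusted p = 0.999).

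The odorant receptor SiOR463 (XLOC_016888, Si_gnH scaffold 28, bases 46860 to 48188, 1 exon) was the only supergene gene of the table with a negative difference, and the largest negative one among the genes named here by function. It had 5.90, 8.16, 3.94 and 5.54 TPM in P_Bb, against 11.5, 11.6, 13.7 and 12.1 TPM in P_BB and 10.6 to 16.0 TPM in M_BB. All 4 P_Bb values lay below all 8 values of SB/SB workers from either social form. According to the study, SiOR463 is deleted from the Sb genome, and its lower level in SB/Sb workers may reflect gene dose. Gene dose was not tested here. The fitted difference was -1.13 ± 0.33 (SE) on the log2 scale and did not pass (edgeR adjusted p = 0.810). It rested on 49 counts in P_Bb and 103 in P_BB in all, and its adjusted p under the other settings ran between 0.135 and 1. Of the 12 assembled loci tested on scaffold 28, SiOR463 alone was lower in P_Bb in all 4 colonies, and the median log2 fold change of the 12 was -0.09.

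**Figure D2:**
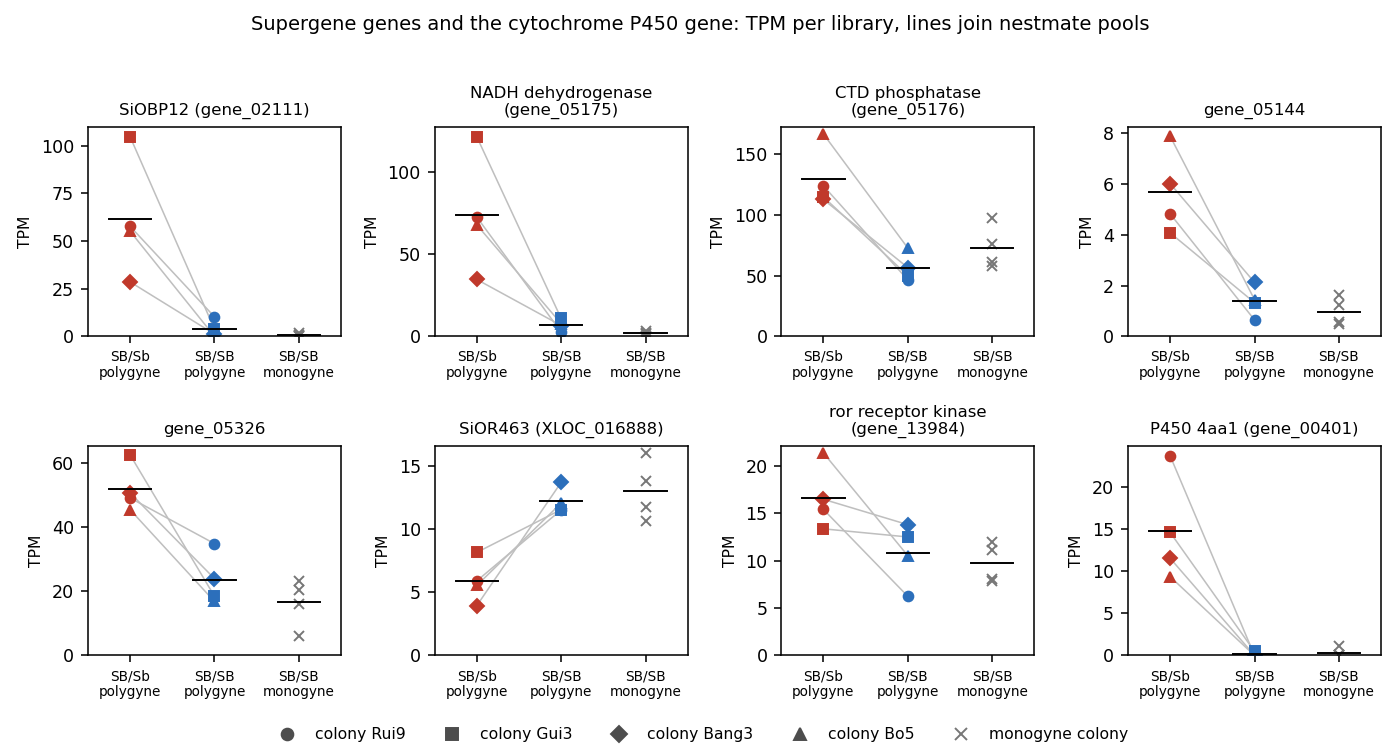
TPM (vertical axis, linear) of the 7 supergene genes of the study's table and of the cytochrome P450 gene SINVm1_gene_00401, in SB/Sb and SB/SB libraries of 4 polygyne colonies and SB/SB libraries of 4 monogyne colonies. Grey lines join the pools of a colony and black bars are group means. In 5 of the 7 supergene genes all P_Bb values lie above all P_BB values, in SINVm1_gene_13984 they overlap, and in SiOR463 they lie below.

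SINVm1_gene_00401, predicted as cytochrome P450 4aa1, one of the enzymes that oxidise small molecules, showed the largest contrast of all genes that passed. It had 23.6, 14.6, 11.5 and 9.33 TPM in P_Bb, against 0, 0.48, 0 and 0 TPM in P_BB and at most 1.07 TPM in M_BB. The 4 P_Bb libraries together held 121 counts and the 4 P_BB libraries 1, a ratio per depth of 113 with an exact 95% interval from 19.9 to 4499.6, which covers counting error only. The edgeR adjusted p was 0.00165, and the fitted log2 fold change of 6.26 became 7.86 without colony Gui3, which held the single P_BB count. Of the 5 genes that the table assigns to chemical metabolism or odorant perception by genotype (SINVm1_gene_00401, the 2 neighbours SINVm1_gene_05175 and SINVm1_gene_05176, SiOBP12 and SiOR463), 4 rose and 0 fell, beside 0.219% and 0.0199% of all genes tested.

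Transposable elements are stretches of DNA that copy or move themselves within the genome, and many encode the enzymes for it. Of the 10 such genes in the table, 6 rose in P_Bb and 0 fell, beside 0.219% and 0.0199% of all genes tested, and their median log2 fold change was 2.19, beside 0.01 for all genes tested. The 6 were LTR and LINE-type retrotransposons as well as genes for a transposase, a nuclease and an integrase. The LTR retrotransposon Gypsy 19 (XLOC_000229, Si_gnH contig 21838, bases 385 to 5499) had the smallest p of all genes. It was at 15.2, 24.2, 27.3 and 19.5 TPM in P_Bb, against 1.90, 3.03, 3.77 and 3.94 TPM in P_BB and 3.18 to 5.60 TPM in M_BB. Its log2 fold change was 2.74 ± 0.21 (SE, edgeR adjusted p = 0.000474), and it passed under all 21 of the other settings tried.

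A further LTR retrotransposon, Copia 12 (XLOC_042917, Si_gnH scaffold 796, bases 15564 to 18502), had 13.4, 13.9, 13.3 and 11.1 TPM in P_Bb, against 4.06, 2.28, 2.61 and 1.72 TPM in P_BB. The P_Bb values were close together, with an SD of 1.24 TPM around 12.9 TPM, and the log2 fold change was 2.25 ± 0.27 (SE, edgeR adjusted p = 0.00406). L2-1 (XLOC_001846, Si_gnH contig 26080, bases 60 to 2135) had 15.0, 19.2, 35.9 and 27.4 TPM in P_Bb, against 4.14, 5.92, 7.69 and 3.81 TPM in P_BB, a log2 fold change of 2.13 ± 0.24 (SE, edgeR adjusted p = 0.00297). Colony Bang3 was highest for L2-1 in both genotypes.

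Among elements or genes derived from them that encode transposition enzymes, SINVm1_gene_00166, a transposase domain-containing protein, had 74.4, 51.0, 60.6 and 52.7 TPM in P_Bb, against 15.5, 4.37, 7.93 and 3.88 TPM in P_BB and 1.16 to 3.57 TPM in M_BB. All 4 P_BB values lay above all 4 monogyne values of this gene, but the nearest were 3.88 and 3.57 TPM. They rested on 6 to 24 counts per library in P_BB and 2 to 6 in M_BB. A difference by social form was not tested here, and the study proposes genotype as the main factor for this gene. Its log2 fold change by genotype was 2.94 ± 0.29 (SE, edgeR adjusted p = 0.00159). The nuclease harbi1-like gene SINVm1_gene_00935 had 65.5, 47.3, 80.7 and 73.6 TPM in P_Bb, against 9.06, 8.47, 14.1 and 7.26 TPM in P_BB, a log2 fold change of 2.77 ± 0.35 (SE, edgeR adjusted p = 0.00517). HARBI1 is a nuclease descended from Harbinger transposons. The integrase core domain gene SINVm1_gene_09325 was near absent from SB/SB antennae. It had 7.38, 17.7, 7.24 and 12.9 TPM in P_Bb, against 0, 0, 0.58 and 0 TPM in P_BB, and it was listed at 0 TPM in all 4 M_BB libraries. Its 68 counts in P_Bb against 1 in P_BB gave a ratio per depth of 63.5, with an exact 95% interval from 11.02 to 2545 for counting error only (edgeR adjusted p = 0.00932). The fitted log2 fold change of 5.56 was 4.85 without Gui3 and 7.29 without Bang3, the colony of the single P_BB count.

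The other 4 elements did not pass, and a pair of them had negative differences. The harbi1-like gene SINVm1_gene_10777 had 146, 152, 178 and 131 TPM in P_Bb, against 72.2, 67.6, 88.4 and 74.5 TPM in P_BB, without overlap (log2 fold change 0.95 ± 0.19, edgeR adjusted p = 0.121). The Pol protein locus XLOC_001664 had 21.1, 35.5, 30.2 and 39.2 TPM in P_Bb, against 16.6, 23.5, 19.8 and 11.6 TPM in P_BB, with overlap (log2 fold change 0.78 ± 0.23, edgeR adjusted p = 0.799). In the opposite direction, the harbi1-like gene SINVm1_gene_00196 had 49.4, 84.9, 75.4 and 64.3 TPM in P_Bb, against 107, 117, 134 and 141 TPM in P_BB (log2 fold change -0.93 ± 0.21, edgeR adjusted p = 0.208). The Tc1 transposase locus XLOC_003144 had 156, 217, 205 and 242 TPM in P_Bb, against 278, 297, 364 and 358 TPM in P_BB (log2 fold change -0.71 ± 0.14, edgeR adjusted p = 0.121). For both, every P_Bb value lay below every P_BB value.

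**Figure D3:**
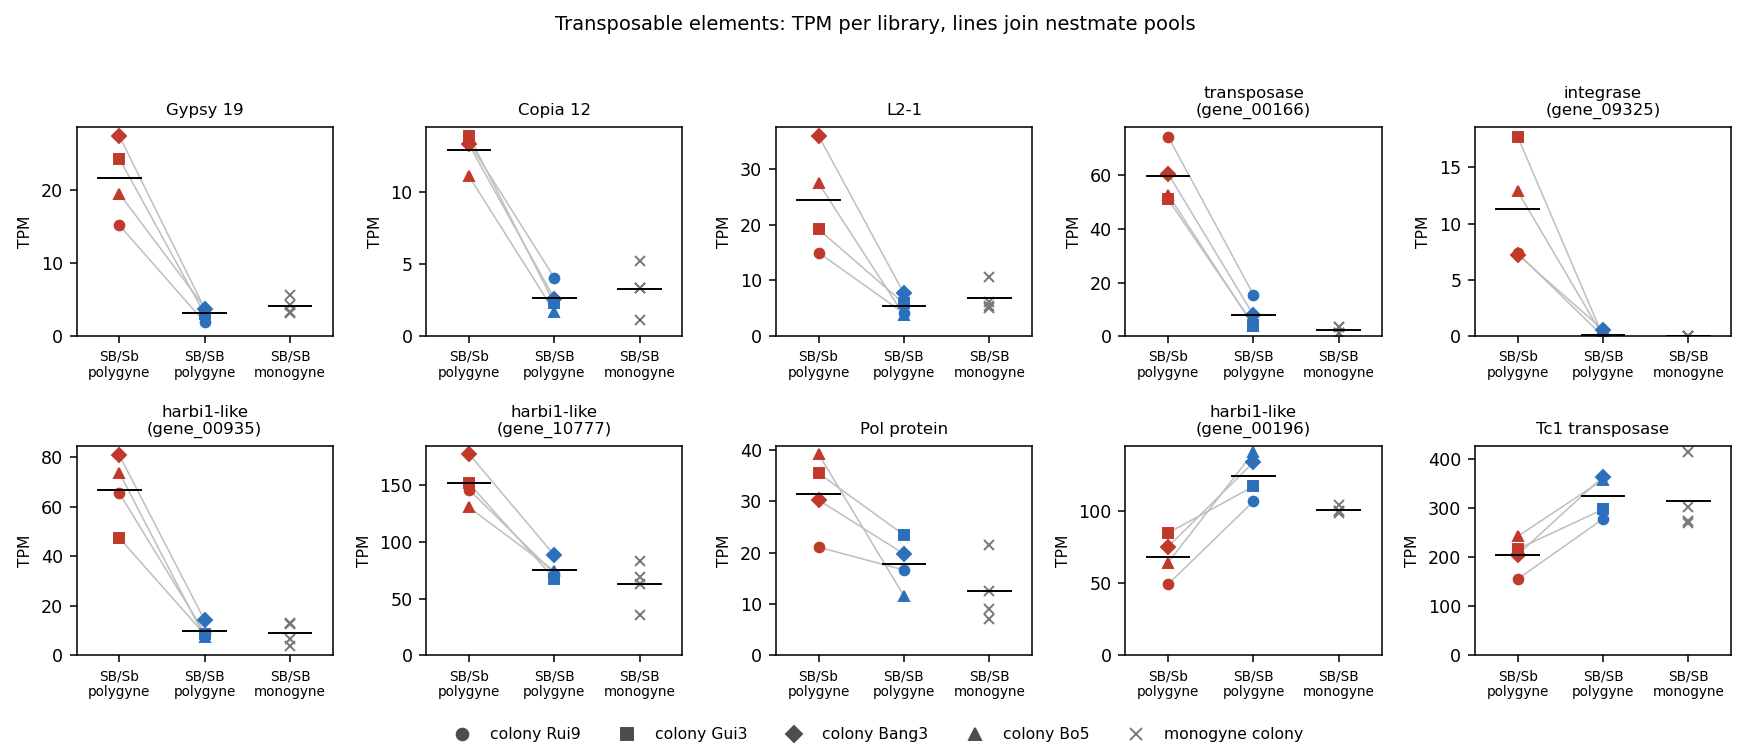
TPM (vertical axis, linear) of the 10 transposable elements of the study's table in SB/Sb and SB/SB libraries of 4 polygyne colonies and SB/SB libraries of 4 monogyne colonies, with grey lines joining the pools of a colony and black bars at group means. Gypsy 19, Copia 12, L2-1, SINVm1_gene_00166, SINVm1_gene_09325 and SINVm1_gene_00935 rose in P_Bb, and SINVm1_gene_00196 and the Tc1 transposase locus lie lower in P_Bb without passing.

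The remaining genes that rose and are described here are virus-like, regulatory or without a known function. XLOC_036229 (Si_gnH scaffold 250, bases 319265 to 325032), a virus-like open reading frame, had the smallest rise of the 22 and the smallest spread between colonies. It had 42.6, 48.3, 53.0 and 45.5 TPM in P_Bb, against 20.6, 26.6, 30.4 and 20.7 TPM in P_BB, a log2 fold change of 0.92 ± 0.13 (SE, edgeR adjusted p = 0.0123), with an SD of 0.15 over the colonies.

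XLOC_041741 (Si_gnH scaffold 598, bases 90474 to 92806, 6 exons) is predicted to be similar to a BEN domain protein, a kind that binds DNA and regulates transcription. It had 5.64, 20.0, 16.1 and 25.02 TPM in P_Bb, against 0.67, 2.84, 3.27 and 3.02 TPM in P_BB. Rui9 was lowest in both genotypes, and the lowest P_BB library held 2 counts. With 1 TPM added, the log2 ratio was 1.99 in Rui9 and 2.01 in Bang3. The added 1 TPM shrinks the ratio most at the low levels of Rui9, so these values do not show equal differences. Its fitted log2 fold change was 2.81 ± 0.29 (SE, edgeR adjusted p = 0.00165).

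XLOC_041027 (Si_gnH scaffold 517, bases 45259 to 47162) had 48.3, 19.03, 33.3 and 57.4 TPM in P_Bb, against 3.11, 5.28, 12.1 and 10.04 TPM in P_BB. Among the genes described here that passed, it had the next largest spread after SINVm1_gene_02111. Its log2 ratio was 3.58 in Rui9, 1.67 in Gui3, 1.39 in Bang3 and 2.40 in Bo5, an SD of 0.98. Its log2 fold change was 2.29 ± 0.32 (SE, edgeR adjusted p = 0.0163), and M_BB libraries were at 6.55 to 18.2 TPM, which overlaps P_BB.

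Several further uncharacterized genes had larger rises than XLOC_041027. The SD of the log2 ratio over the colonies was 0.57 for SINVm1_gene_00322, 0.73 for SINVm1_gene_00321 and 0.69 for SINVm1_gene_10405. These lay below the 0.98 of XLOC_041027 but above the median of 0.54 for the 22 genes. SINVm1_gene_00322 had 18.3, 21.2, 20.9 and 21.5 TPM in P_Bb, against 0.79, 3.34, 1.29 and 0.79 TPM in P_BB (log2 fold change 3.696 ± 0.36, edgeR adjusted p = 0.00159). SINVm1_gene_00321, next to it by number, had 30.7, 17.6, 28.8 and 35.8 TPM in P_Bb, against 2.59, 3.65, 2.84 and 1.73 TPM in P_BB (log2 fold change 3.24 ± 0.38, edgeR adjusted p = 0.00406). For SINVm1_gene_00322, the log2 fold change without the block became 4.29 once the P_BB pool of Gui3 was left out. Both had their smallest ratio in Gui3 and their largest in Bo5. SINVm1_gene_10405 had 37.5, 28.4, 31.5 and 19.9 TPM in P_Bb, against 3.11, 0, 0.85 and 0 TPM in P_BB (log2 fold change 4.79 ± 0.58, edgeR adjusted p = 0.00406). All of its P_BB signal came from 4 counts, 3 of them in Rui9, and without that colony the log2 fold change was 6.03.

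XLOC_023347 (Si_gnH scaffold 59, bases 4 to 5251) had 57.4, 65.8, 73.1 and 73.4 TPM in P_Bb, against 16.2, 25.7, 23.2 and 12.0 TPM in P_BB (log2 fold change 1.81 ± 0.18, edgeR adjusted p = 0.00159). XLOC_044145 (Si_gnH scaffold 1317, bases 49 to 2060) had 105.5, 92.3, 37.7 and 83.1 TPM in P_Bb, against 34.9, 16.5, 12.2 and 16.9 TPM in P_BB. Its level differed several-fold between colonies in both genotypes, with Rui9 highest and Bang3 lowest, while the ratio within a colony stayed between 1.55 and 2.41 on the log2 scale. With the colony in the model its adjusted p was 0.00229 (edgeR, log2 fold change 1.95 ± 0.21), and without it 0.313. The last 2 loci, XLOC_036812 (Si_gnH scaffold 268) and XLOC_001413 (Si_gnH contig 24609), had log2 fold changes of 2.44 ± 0.31 (edgeR adjusted p = 0.00547) and 1.69 ± 0.25 (edgeR adjusted p = 0.0163). P_Bb values were 10.6 to 22.4 TPM, against at most 4.43 TPM in P_BB, for XLOC_036812, and 23.2 to 30.5 TPM, against 6.11 to 9.87 TPM in P_BB, for XLOC_001413.

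**Figure D4:**
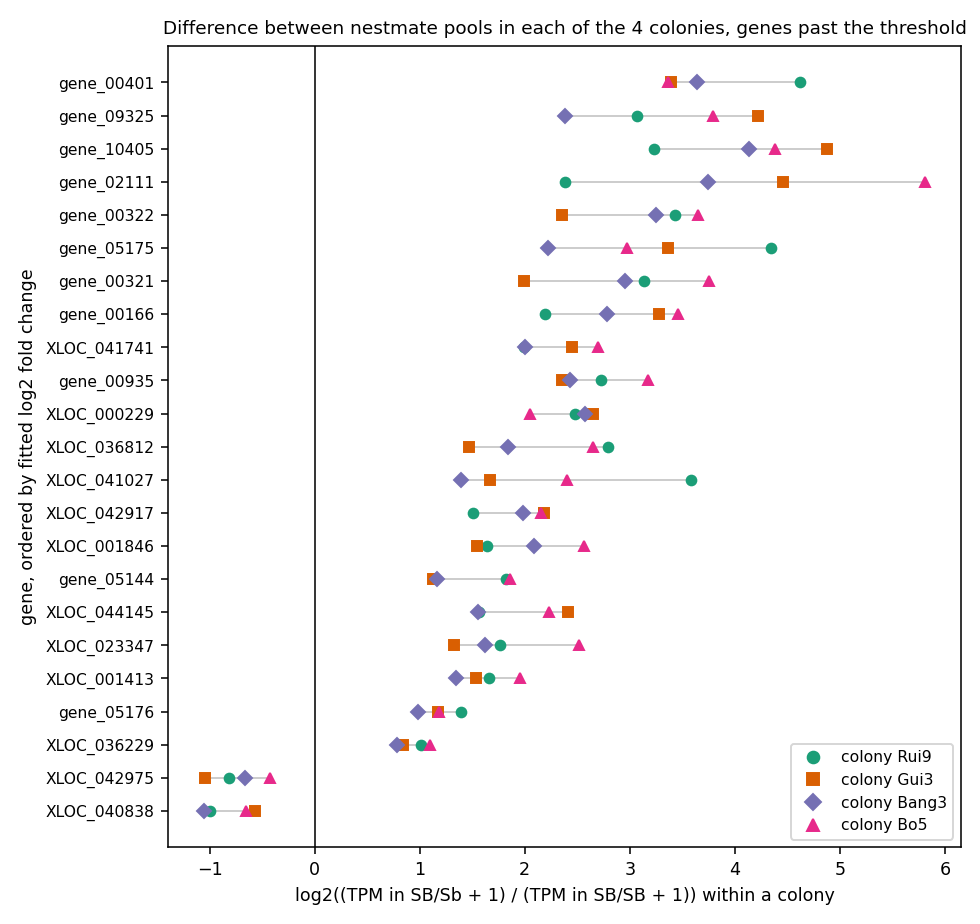
Each row is 1 of 23 of the 24 genes past the threshold, ordered by fitted log2 fold change, and each symbol is the log2 ratio of TPM + 1, SB/Sb over SB/SB, within 1 colony. All 84 symbols of the 21 upper genes lie right of 0 and all 8 of the lower pair lie left of it, and SINVm1_gene_02111 (SiOBP12) has the widest range.

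The 22 genes were chosen by a test on these 4 colonies, so the values per colony are a description. Their median log2 ratio was 2.43 in Rui9, 2.27 in Gui3, 2.16 in Bang3 and 2.67 in Bo5. The median gene in P_BB stood at 13.0%, 17.9%, 19.4% and 11.7% of its P_Bb level in these colonies. The SD of the ratio over the 4 colonies had a median of 0.54 for the 22 genes, beside 0.40 over all genes tested.

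Of the 22 genes, 11 belonged to the official gene set and 11 were loci assembled from the reads of these libraries, although assembled loci were 2596 of the 10057 genes tested. In the deposited exon annotation, 9 of the 11 had 1 exon, beside 70.1% of the assembled loci tested. The share of assembled loci that passed in either direction was 0.501%, against 0.147% of official genes. Of all assembled loci tested, 8.74% were higher and 3.78% lower in P_Bb in all 4 colonies. Of the 43 genes that the study's table gives as different by social form, 39 were tested by genotype. Of these, 0 passed (edgeR adjusted p under 0.05), beside 0.239% of all genes. In all 4 colonies 3 (7.69%) were higher and 0 lower in P_Bb, beside 6.41% and 3.28% of all genes. Their median log2 fold change was -0.01. On these same libraries the study had assigned them to a pattern without a difference between P_Bb and P_BB. The 0 thus follows in part from that choice, and no conclusion is drawn from it.

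The 2 genes that fell were both assembled loci. XLOC_040838 (Si_gnH scaffold 499, bases 85121 to 93828) had 86.3, 110.7, 95.3 and 106.7 TPM in P_Bb, against 173, 165, 199 and 168 TPM in P_BB and 139 to 156 TPM in M_BB. It was well covered, with 6479 counts in P_Bb and 11169 in P_BB, and the genotypes did not overlap. Its log2 fold change was -0.86 ± 0.14 (SE, edgeR adjusted p = 0.0251, and 0.0554 without the block). XLOC_042975 (Si_gnH scaffold 814, bases 61311 to 68028), which is not in the study's table, had 19.1, 15.5, 41.4 and 27.6 TPM in P_Bb, against 34.4, 33.2, 66.3 and 37.4 TPM in P_BB. Its groups overlapped, because Bang3 was high in both genotypes, but in each colony the P_Bb pool was lower. At -0.80 ± 0.14 on the log2 scale (SE, edgeR adjusted p = 0.0490) it lay at the edge of the threshold, and the adjusted p without the block was 0.99994. Without Bang3 the adjusted p (edgeR) of XLOC_040838 was 0.489 and that of XLOC_042975 was 0.621, and without Bo5 they were 0.401 and 0.278.

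Both loci had neighbours on their scaffolds with differences of the same sign. All 6 assembled loci tested on scaffold 499 had negative log2 fold changes, with a median of -0.76 and a range from -0.86 to -0.38. Of all 2596 assembled loci tested, 1084 had negative values. XLOC_040842 had 24.6, 42.3, 25.1 and 34.9 TPM in P_Bb, against 38.0, 63.4, 47.8 and 67.4 TPM in P_BB (log2 fold change -0.81 ± 0.15, edgeR adjusted p = 0.0827). XLOC_040843, next to it, had 15.3, 20.2, 19.02 and 16.3 TPM in P_Bb, against 31.97, 26.4, 39.1 and 25.4 TPM in P_BB (log2 fold change -0.83 ± 0.20, edgeR adjusted p = 0.366). On scaffold 814, XLOC_042976, adjacent to XLOC_042975, had 16.5, 15.2, 27.2 and 24.7 TPM in P_Bb, against 32.9, 27.3, 56.9 and 33.1 TPM in P_BB (log2 fold change -0.88 ± 0.16, edgeR adjusted p = 0.0736). Adjoining loci are not independent of each other. None of the 26 assembled loci tested that share a scaffold or contig with a gene that passed was itself past the threshold.

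A pair of further scaffolds, chosen after their values were seen for holding at least 3 loci lower in all 4 colonies, had further groups of loci. On scaffold 195, 7 of the 8 loci tested had negative differences, with a median over the 8 of -0.73, and on scaffold 913 all 5 did, with a median of -0.39. The share over all assembled loci tested was 1084 of 2596. The best covered, XLOC_034085 (scaffold 195), had 232, 283, 248 and 172 TPM in P_Bb, against 584, 289, 412 and 233 TPM in P_BB, from 17967 counts in P_Bb and 27859 in P_BB. The genotypes overlapped there, because Gui3 barely differed and Bo5 was low in both, and the fitted difference did not pass (log2 fold change -0.67 ± 0.22, edgeR adjusted p = 0.999). XLOC_034101 came closest to the threshold, with 23.6, 26.4, 36.6 and 34.3 TPM in P_Bb, against 39.5, 53.7, 77.0 and 49.6 TPM in P_BB (log2 fold change -0.89 ± 0.15, edgeR adjusted p = 0.0520). The exception on scaffold 195 was XLOC_034094, which lies far from the others, between bases 328858 and 339410, with 70.7, 85.9, 69.0 and 65.5 TPM in P_Bb, against 56.5, 72.8, 60.8 and 61.5 TPM in P_BB (log2 fold change 0.14 ± 0.13, edgeR adjusted p = 0.999).

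Over the 4 scaffolds together, 13 of 22 loci tested were lower in P_Bb in all 4 colonies, by TPM as by TMM-scaled counts, beside 3.30% of the 2574 assembled loci elsewhere. As the scaffolds were picked for their low values, this is a description. The loci are also not all separate units. On scaffold 195, XLOC_034077 lies within the span of XLOC_034075 on the same strand, and both are among the 13. The median log2 ratio of the 22 loci was -0.84 in Rui9, -0.39 in Gui3, -0.87 in Bang3 and -0.43 in Bo5. Without colony Gui3, 33 genes fell past the threshold and 24 rose. Of the 33, 31 were assembled loci and 14 lay on these 4 scaffolds. In the full comparison 2 did.

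**Figure D5:**
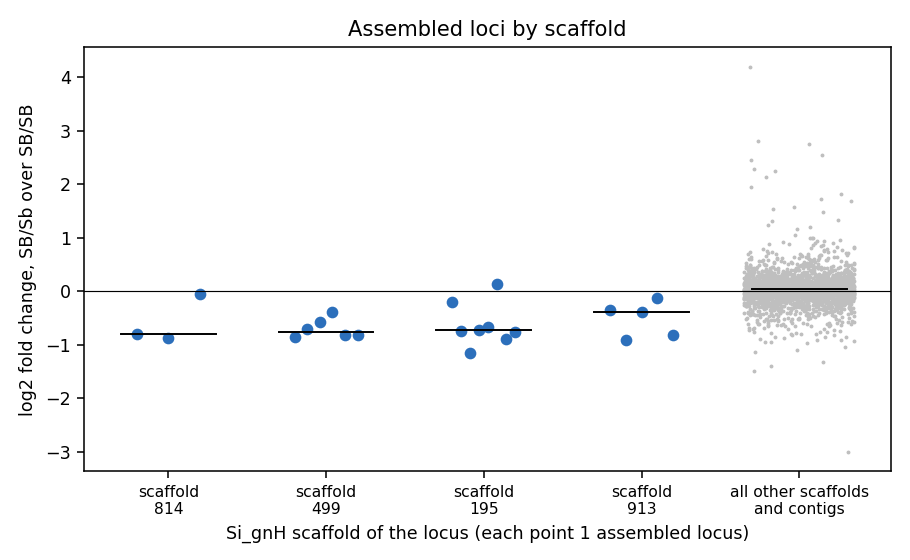
Fitted log2 fold change, SB/Sb over SB/SB, of the assembled loci tested, by Si_gnH scaffold, with black bars at medians. Of the 22 loci on scaffolds 499, 814, 195 and 913, 21 lie below 0 and their median is -0.73, whereas the 2574 loci on all other scaffolds and contigs have a median of 0.04. The 4 scaffolds were chosen by these values or because they hold a gene that fell.

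Of the 13 scaffolds and contigs that held an assembled locus past the threshold, 7 had at least 1 other locus tested. On scaffold 59 the other loci beside XLOC_023347 had log2 fold changes from -0.04 to -0.02. On scaffold 250, by contrast, all 5 loci had positive differences, with a median of 0.42. Positive differences were also found in 1512 of the 2596 assembled loci tested. The 4 loci of scaffold 796, Copia 12 included, had a median of 0.79, and 1 of them (XLOC_042913) was lower in P_Bb in all 4 colonies at -0.58. On scaffold 517, 3 of 5 loci had negative differences, and the median was -0.05. On scaffold 268, which had 7 loci tested, XLOC_036811 was higher beside XLOC_036812, with 8.01, 13.2, 12.9 and 10.6 TPM in P_Bb, against 2.09, 2.66, 6.84 and 3.14 TPM in P_BB (log2 fold change 1.58 ± 0.37, edgeR adjusted p = 0.291), and the median of the scaffold was 0.03.

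Outside the study's table, the largest positive differences in the same direction in all 4 colonies were those of SINVm1_gene_13009, SINVm1_gene_00193, XLOC_036811, XLOC_038346 and XLOC_040784, none of which passed. SINVm1_gene_13009 had 14.0, 13.6, 13.5 and 19.01 TPM in P_Bb, against 1.20, 2.03, 5.89 and 6 TPM in P_BB (log2 fold change 1.97 ± 0.41, edgeR adjusted p = 0.137). SINVm1_gene_00193 had 2.43 to 4.22 TPM in P_Bb, against 0.91 to 1.37 TPM in P_BB (log2 fold change 1.699 ± 0.35, edgeR adjusted p = 0.132). XLOC_038346 and XLOC_040784 overlapped between genotypes (log2 fold changes 1.54 ± 0.54 and 1.48 ± 0.34, edgeR adjusted p = 0.999 and 0.272). For XLOC_040784 the posterior SD of the count, which measures how far reads could be assigned to other genes, was 33.2% of the count.

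The largest negative ones were those of XLOC_002345, XLOC_003608, SINVm1_gene_00990, XLOC_034077 and SINVm1_gene_13005, and none passed either. XLOC_034077, also on scaffold 195, had 88.6, 147, 68.9 and 85.7 TPM in P_Bb, against 308, 167, 182 and 179 TPM in P_BB, with no overlap (log2 fold change -1.16 ± 0.28, edgeR adjusted p = 0.460). Its P_BB level was above the 85.1 to 129.6 TPM of M_BB. SINVm1_gene_13005 had 5.11, 9.12, 8.26 and 6.72 TPM in P_Bb, against 9.53, 16.7, 13.5 and 25.4 TPM in P_BB (log2 fold change -1.14 ± 0.33, edgeR adjusted p = 0.810). SINVm1_gene_00990 varied over a far wider range between colonies than between genotypes, with 66.9, 0, 74.7 and 24.4 TPM in P_Bb, against 114.5, 15.3, 76.7 and 155.9 TPM in P_BB and 8.93 to 1057 TPM in M_BB. XLOC_002345 and XLOC_003608 had log2 fold changes of -1.48 ± 0.33 and -1.33 ± 0.41 (edgeR adjusted p = 0.205 and 0.970) on 42 and 46 counts in P_Bb.

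The table's last gene given as lower in SB/Sb, XLOC_034528, had 4.17, 0, 4.40 and 0 TPM in P_Bb, against 15.1, 10.3, 14.1 and 15.2 TPM in P_BB. Its reads were poorly assigned, with a posterior SD of 53.3% of the count, and it did not pass (log2 fold change -3.01 ± 0.81, edgeR adjusted p = 0.999). For the 24 genes that passed, this SD was at most 4.91% of the count.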

How the data were processed

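The authors amplified antennal RNA, sequenced it on Illumina HiSeq, mapped the trimmed reads with Bowtie2 to the official gene set joined with loci assembled from the same libraries, and estimated levels with RSEM. The deposited tables hold an expected count per gene, not scaled for library size, a TPM value, and a posterior SD of the count. The authors' posterior SD came from RSEM's sampling and is used here, as deposited, as a score of read sharing between genes. Reads carried no molecular identifiers, so intervals cover counting error only. A deposited exon annotation placed assembled loci on the Si_gnH assembly.

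Expected counts of the 8 polygyne libraries were rounded and fitted in edgeR 4.0.16 (R 4.3.3) with TMM scaling (factors 0.854 to 1.10), filterByExpr, and a robust quasi-likelihood test of genotype with colony as a block (3 residual degrees of freedom). SE is the absolute log2 fold change divided by the root of F and is approximate. P-values were adjusted over all 10057 genes by Benjamini-Hochberg at 0.05. Per-colony ratios are log2 of TPM + 1. Libraries of a colony were paired by the colony label. The deviations of both libraries of a colony from their genotype means correlated across genes at 0.507 (Rui9), 0.0815 (Gui3), 0.670 (Bang3) and 0.337 (Bo5), against -0.549 to 0.452 between colonies, where P_Bb of Gui3 was closest to P_BB of Rui9 (0.452), and genes are not independent replicates.

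Genes named were those past the threshold, the supergene, transposable element and chemical genes that the study's table gives by genotype, its other genes given as lower in SB/Sb, and the 5 largest differences in each direction outside it among genes with a mean of at least 10 counts and 1 direction in 4 colonies. Loci on 4 scaffolds were added after their values were seen. 1 of the genes past the threshold is not reported here by name. The genes and lists were chosen with earlier results of these data known. The study's methods fit no colony term and use EBSeq, which was not used here. The fit was also run on simulated counts drawn with the same dispersion for every gene. Real genes differ in spread, so that run does not measure the error rate of the fit here. Alternatives used DESeq2 1.42.0 and limma 3.58.1, and other computations used Python 3.11.15.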

Additional observations from a re-analysis of the deposited data

Results flagged for a closer look

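In 8 of the 104 genotype groups looked at for the named genes, 1 library lay far from the other 3 by Dixon's 95% criterion on TPM. Chance flags about 1 in 20 such groups. In P_BB, SINVm1_gene_00401 had 0.48 TPM in Gui3 and SINVm1_gene_09325 had 0.58 TPM in Bang3, where the other 3 libraries were at 0. These are single counts. XLOC_041741 had 0.67 TPM in P_BB of Rui9, against 2.84 to 3.27 TPM in the others. XLOC_042975 had 66.26 TPM in P_BB of Bang3, against 33.2 to 37.4 TPM. XLOC_034077 had 308 TPM in P_BB of Rui9, against 167 to 182 TPM.

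In P_Bb, SINVm1_gene_00193 had 2.43 TPM in Gui3, against 3.93 to 4.22 TPM. XLOC_034104 had 56.37 TPM in Gui3, against 46.5 to 47.5 TPM. SINVm1_gene_13009 had 19.01 TPM in Bo5, against 13.5 to 14.0 TPM. The causes of these values were not tested.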

How the results depend on the processing

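The 24 genes past the threshold became 48 without a filter on low counts (33 higher, 15 lower in P_Bb, 16292 genes tested), 11 in the fit of all 12 libraries with the replicate block, 11 with limma on log2(TPM + 1), 34 with DESeq2 (23 higher, 11 lower), 23 with DESeq2 size factors, 25 with upper-quartile factors and 16 without the replicate block. Without the block, 16 of the 22 higher genes still passed and 0 of the 2 lower ones. With 1 colony left out the count ran from 1 (without Bo5) to 57 (without Gui3, 24 higher and 33 lower), and with 1 library left out and no block, a setting chosen after seeing the data, it was 10 without the P_Bb pool of Rui9, 16 of Gui3, 15 of Bang3 and 12 of Bo5, and 16 without the P_BB pool of Rui9, 6 of Gui3, 9 of Bang3 and 7 of Bo5. The cause was not tested. At an adjusted p under 0.10 there were 31 genes and under 0.01 there were 17. Genes lower in all 4 colonies numbered 512 by TMM-scaled counts, and at least 2-fold differences in all 4 colonies were seen in 23 higher and 2 lower genes. The median SD between colonies lay between 0.32 and 0.43 under the pseudocounts of 0.5 and 5 and with a colony left out. No named gene changed direction under these settings. Depth limits the genes whose P_BB libraries held a few counts.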
